A study of Mus musculus with 30 samples.

Results

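Inversion of CBE2 was set against mutation of CBE2 in 6 of the 30 libraries of the series, 3 labelled CBE2inv and 3 labelled CBE2mut, taken by sample title. CBE2 is 1 of the paired CTCF-binding elements (CBEs) of IGCR1, the intergenic control region 1 between the D and the V segments of the mouse antibody heavy-chain locus (Igh). The series asked what IGCR1 and the CBEs at the 3′ end of Igh do in V(D)J recombination. Its method, HTGTS-V(D)J-seq, starts from a primer at JH4, the bait, and sequences whatever genomic DNA has been joined there, the prey.

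All 6 libraries came from sorted B220+ IgM- CD43+ bone marrow pro-B cells of 129SV mice. The CBE2inv animals carried the inverted element on both alleles (CBE2inv/inv), and the CBE2mut animals lacked the working element on both (CBE2-/-). CBE1 was unaltered in both groups as far as the labels say, so neither group is a control with an intact IGCR1. The 3 wild-type (WT) libraries were of the same cells and strain but of another sequencing run. They are given side by side only, since genotype and run cannot be told apart there. The series also holds 3 bone marrow libraries each of CBE1inv, CBE1mut and CBE12mut. By their titles these carry CBE1 inverted, CBE1 mutated, and both elements mutated. All 6 bone marrow genotypes entered the limma fits and the segment filter, and the CBE1 groups are used for comparison below. Age, sex and the number of animals behind a library are not stated in the labels, so p-values measure the spread between libraries, which may be technical. For limma that spread was pooled within genotype over all 18 bone marrow libraries, and is not that of the 6 CBE2 libraries alone. The exact permutation tests used the 6 CBE2 libraries only. The deposited files do not mark the edits, so the genotype labels could not be checked against an edited sequence.

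A heavy-chain gene is assembled in steps. A D segment first joins a JH segment, and a V segment then joins the DJH product. RAG, the recombinase bound at the JH end, finds its D and V partners while cohesin extrudes the chromatin past it. CTCF bound at CBEs in a given orientation impedes that extrusion, and IGCR1 is known as a barrier that keeps the V segments nearest to D, above all Ighv5-2 (VH81X), from being used in excess. A junction at a D is called a D join here, and one at a V a V join. Igh lies on the minus strand of chromosome 12, so joins that delete the DNA between bait and prey have 1 orientation, and inversional joins have the other.

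The results turn on the V segments nearest to D and on the D segments next to IGCR1, whose sequences are therefore shown first. For 5 of the V segments, the last 12 coding bases and the recombination signal sequence read by RAG follow from mm9, 5′ to 3′ on the minus strand. Capitals mark the heptamer and the nonamer, which flank a 23-base spacer.
Ighv5-2, chr12:114816676-114816726: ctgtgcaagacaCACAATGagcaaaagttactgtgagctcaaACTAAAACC
Ighv2-2, chr12:114826439-114826489: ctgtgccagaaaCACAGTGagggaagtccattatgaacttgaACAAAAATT
Ighv5-4, chr12:114835618-114835668: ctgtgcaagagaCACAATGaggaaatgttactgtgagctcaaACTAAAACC
Ighv2-3, chr12:114849356-114849406: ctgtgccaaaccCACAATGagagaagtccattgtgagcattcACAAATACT
Ighv5-6, chr12:114863678-114863728: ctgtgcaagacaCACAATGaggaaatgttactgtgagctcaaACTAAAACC
The Ighv2-2 heptamer held all 7 letters of CACAGTG, and the other heptamers held 6 of them. The nonamers of Ighv5-2, Ighv5-4 and Ighv5-6 held 8 of the 9 letters of ACAAAAACC, and those of Ighv2-2 and Ighv2-3 held 7.

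The D segments were read from the junctions of the libraries on the bone marrow alignment target, which joins a 129 Igh sequence to mm9 and whose positions are not mm9 positions. Ighd1-1 (DFL16.1) is the last D before IGCR1. A D at position 114719358 shares with it a stretch of 10 bases that capitals mark. That D matched none of the mm9 annotation used for naming, and names from other strains were not searched. Ighd4-1 (DQ52) is the D nearest to JH.
Ighd1-1, chr12:114734544-114734566: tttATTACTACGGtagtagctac
D at 114719358, chr12:114719358-114719374: ttcATTACTACGGctac
Ighd4-1, chr12:114673089-114673099: ctaactgggac
D closest to Ighd3-2, chr12:114687612-114687627: agacagctcgggctac
The interval from Ighd1-1 to the nearest V is 92049 bp long in mm9. The letters CCACAAGNGGG, a short form of the CTCF motif chosen with the interval in view, were searched on both strands. They matched there at 2 places, 3079 bp and 5696 bp beyond Ighd1-1 and in opposite orientation (capitals, read 5′ to 3′ on the strand of the match).
minus strand, chr12:114723467-114723507: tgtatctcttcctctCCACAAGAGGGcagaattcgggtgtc
plus strand, chr12:114726084-114726124: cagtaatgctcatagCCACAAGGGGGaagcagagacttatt
Of 1266 windows of that length on chromosome 12, 16.4% held a match and 0.9% held 2 or more. The files do not mark which match, if either, is CBE1 or CBE2.

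The 6 libraries held 163461 junctions, of which 67612 were V joins and 79449 were D joins. CBE2inv replicates 1, 2 and 3 held 25990, 37480 and 15877 junctions, and CBE2mut replicates 31576, 11105 and 41433. The WT libraries held 57970 to 89905. Read sequences repeated within libraries. Distinct read sequences were 66.0% to 70.9% of the lines in CBE2inv and 56.1% to 80.5% in CBE2mut, beside 84.9% to 88.1% in WT. Distinct junctions count each set of bait end, gap, prey position and orientation once. They were 28.6% to 39.2% of the lines in CBE2inv, 20.0% to 51.5% in CBE2mut and 26.3% to 34.5% in WT. Among the 6 CBE2 libraries both measures were highest in the shallowest. No pair of the 6 libraries shared more than 1 V junction with a gap of at least 10 bases, over 15 pairs. Levels are junctions per 100000 of a library, or shares within its V joins or D joins, and a call is an adjusted p under 0.05.

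The balance between V and D joins did not separate the groups. V joins made up 40.4%, 50.2% and 43.9% of V plus D joins in the CBE2inv replicates (mean 44.8% ± 4.94 SD, n = 3). The share was 55.2%, 42.5% and 40.5% in the CBE2mut replicates (46.1% ± 7.99, n = 3). The groups overlapped, and both means lay above the WT mean of 34.4%. The difference of −1.24 points was smaller than the spread within either group (exact two-sided permutation test over 20 relabelings, p = 0.8, where 0.1 is the smallest p that 3 against 3 allows). Leaving out CBE2mut replicate 1 turned it to 3.33 points, and leaving out CBE2inv replicate 1 turned it to 0.953 points.

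What differed was where along the V segments the joins fell. The part of the V region nearest to D, 1 of 3 parts of equal length, held 23632, 22740 and 22278 junctions per 100000 in CBE2inv and 32791, 29428 and 27633 in CBE2mut. Every CBE2inv library lay below every CBE2mut library, and WT lay lower still, at 18560. The log2 difference was −0.39 (SE 0.08, limma, adjusted p = 0.003). It was not called with only the 6 CBE2 libraries in the fit (adjusted p = 0.262), and over all 12 alternatives the adjusted p ranged from 0.000184 to 0.262.

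The farthest part of the V region went the other way, less evenly. It held 4144, 5550 and 5732 junctions per 100000 in CBE2inv and 5409, 2224 and 1936 in CBE2mut. CBE2mut replicate 1 lay among the CBE2inv libraries, so the groups overlapped, and the WT mean was 4211. The log2 difference of 0.83 (SE 0.29, limma, adjusted p = 0.0412) passed in 4 of 12 alternatives (adjusted p from 3.57e-05 to 0.33). It was lost without CBE2inv replicate 2 (0.77), CBE2inv replicate 3 (0.75), CBE2mut replicate 2 (0.65) or CBE2mut replicate 3 (0.55), and was 1.29 without CBE2mut replicate 1.

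In the middle part of the V region the mean level was 12085 ± 1639 in CBE2inv and 9368 ± 3940 in CBE2mut (log2 0.44, limma, adjusted p = 0.125). In all, 3 of the 10 zones tested were called, which is 30%. The third of them, downstream of JH, rested on 0, 7 and 1 junctions against 6, 4 and 32, and on 5 against 8 distinct ones. Its log2 difference of −2.89 (limma, adjusted p = 0.0412) passed in 3 of 12 alternatives, and leaving out any of CBE2inv replicates 1 and 3 (−1.69 and −3.12) and CBE2mut replicates 2 and 3 (−2.92 and −2.38) ended the call.

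**Figure D1:**
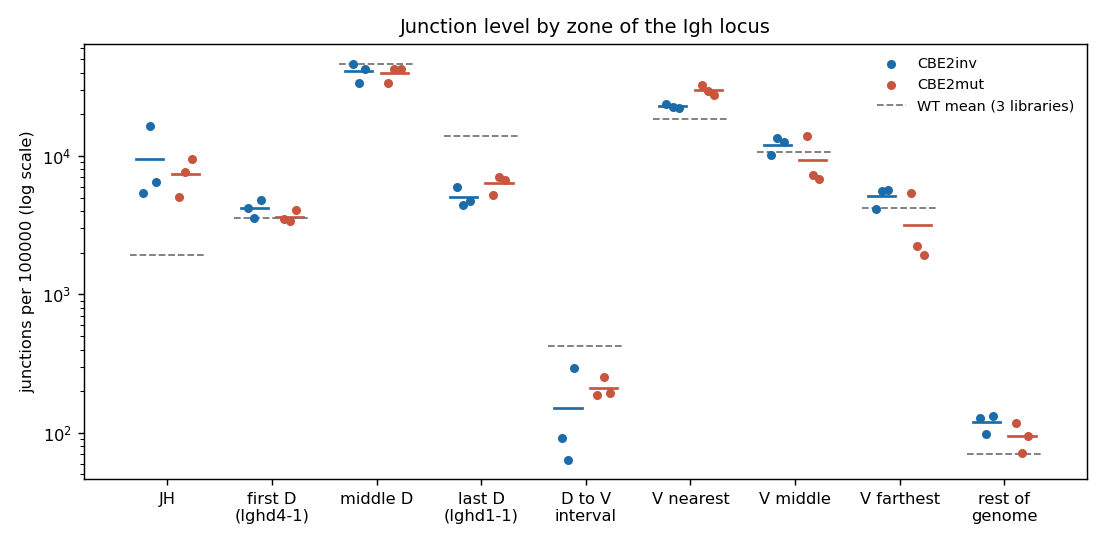
Junctions per 100000 (log axis) in 8 zones of the Igh locus and in the rest of the genome, 1 point per library, with short lines at the group means of 3 libraries and a dashed line at the WT mean. In the nearest V part the CBE2inv points, 22278 to 23632, all lie below the CBE2mut points, 27633 to 32791.

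Of the 168 segments tested per 100000 junctions, 3 rose (1.79% called higher) and 3 fell (1.79% called lower) in CBE2inv against CBE2mut. The 3 that fell were the 3 V segments nearest to D. The median log2 difference over all 168 was 0.42, and median-of-ratios scaling moved it to −0.03, so that 3 rose and 7 fell under it. The count of 6 became 29 with CBE2mut replicate 1 left out, 1 with CBE2inv replicate 2 left out, 3 with CBE2inv replicate 3 left out and 2 with CBE2mut replicate 3 left out.

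Ighv5-2, the functional V segment nearest to D, carried the largest part of the difference. Its level was 6445, 4981 and 4352 junctions per 100000 in the CBE2inv replicates and 9970, 9779 and 9374 in the CBE2mut replicates. The highest CBE2inv library lay well below the lowest CBE2mut library, and the WT mean was 3588. The log2 difference was −0.88 (SE 0.12, limma, adjusted p = 1.28e-06). It was called in 19 of 19 alternatives (adjusted p from 1.08e-08 to 0.000249).

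Ighv5-2 was also a smaller share of the V joins. It took 17.0%, 11.98% and 10.8% of V joins in CBE2inv and 19.2%, 25.2% and 25.8% in CBE2mut, means of 13.2% ± 3.32 and 23.4% ± 3.64 beside 10.8% in WT. The groups did not overlap, although CBE2inv replicate 1 and CBE2mut replicate 1 lay only a few points apart. With each distinct junction counted once, the shares were 15.2%, 11.2% and 10.8% against 17.9%, 23.9% and 23.1%. The log2 difference within V joins was −0.82 (SE 0.13, limma, adjusted p = 6.58e-07), and it was called in 17 of 17 alternatives (adjusted p from 3.41e-11 to 0.00203).

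Ighv2-2, the next functional V segment, followed the same course. It stood at 3486, 3090 and 3143 junctions per 100000 in CBE2inv and at 5365, 5142 and 4931 in CBE2mut, with no overlap and a WT mean of 2013. The log2 difference was −0.67 (SE 0.15, limma, adjusted p = 0.00367), and −0.62 and no longer called without CBE2inv replicate 2. Within V joins its share was 8.13% ± 0.942 against 12.4% ± 1.78 (log2 −0.59, limma, adjusted p = 0.00261). That call was lost without CBE2inv replicate 2 (−0.51) and without CBE2mut replicate 3 (−0.50).

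Ighv5-1 is annotated as a pseudogene and is the V nearest to D of all. It was seen at 346, 251 and 120 junctions per 100000 in CBE2inv and at 576, 405 and 536 in CBE2mut, again without overlap. The log2 difference was −1.14 (SE 0.32, limma, adjusted p = 0.0257), and within V joins −1.07 (limma, adjusted p = 0.00913). These counts were smaller, 19 to 222 joins per library. Leaving out CBE2inv replicate 3 ended both calls (−0.83 and −0.77), as did leaving out CBE2inv replicate 2 (−1.20 and −1.10) or CBE2mut replicate 3 (−1.10 and −0.89).

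The next functional V segments were not called. Ighv5-4 held 2012, 1801 and 1701 junctions per 100000 in CBE2inv and 2708, 2674 and 2546 in CBE2mut, which did not overlap but was not called (log2 −0.51, limma, adjusted p = 0.102). Ighv2-3 held 1108, 1057 and 970 against 1682, 1558 and 1453, also without overlap and not called (−0.56, limma, adjusted p = 0.106). For Ighv5-6 the difference was −0.49 (limma, adjusted p = 0.281) and for Ighv5-12 −0.37 (limma, adjusted p = 0.379), and in both the groups were apart. Ighv5-4 and Ighv2-3 were called in 4 and 2 of 19 alternatives, among them median-of-ratios scaling (−0.94 and −0.99) and each distinct junction once (−0.49 and −0.64).

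The remaining members of the nearest 10 were thinly used. The unnamed V closest to Ighv5-9, at position 114919648 of the target, held 108, 107 and 107 junctions per 100000 against 294.5, 144 and 174 (log2 −0.93, limma, adjusted p = 0.231). The 2 unnamed V closest to Ighv2-4 and Ighv2-6 overlapped between the groups, at means of 71.4 against 75.0 and of 71.9 against 83.9. A named Ighv5-9 lay farther out, as the V of order 21 from D, at 37.9 ± 9.53 against 23.5 ± 21.9 (limma, adjusted p = 0.394).

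As a group, the 10 V segments nearest to D summed to 15267, 13084 and 11936 junctions per 100000 in CBE2inv and to 22599, 22017 and 21526 in CBE2mut, against 9230 in WT. In 8 of the 10 all CBE2inv libraries lay below all CBE2mut libraries, where 5.95% of all 168 segments did. The median log2 difference of the 10 was −0.54 beside 0.42 over all segments, and 3 were called lower and 0 higher.

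**Figure D2:**
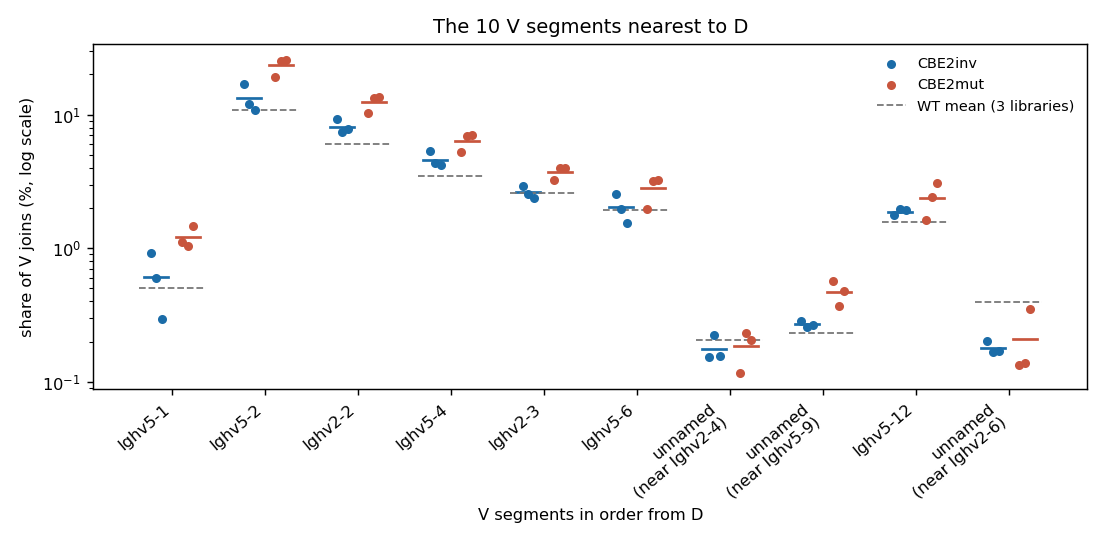
Share of V joins (log axis) of the 10 V segments nearest to D, in order of distance, 1 point per library, with lines at the means of 3 libraries and dashed lines at the WT mean. Ighv5-2 lies at 10.8% to 17.0% in CBE2inv and at 19.2% to 25.8% in CBE2mut, and among the others the groups are apart in Ighv5-1, Ighv2-2, Ighv2-3 and the unnamed V near Ighv5-9.

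Counted outward from D, V joins were more front-loaded in CBE2mut. The first 3 V segments held 27.1%, 20.0% and 18.8% of V joins in CBE2inv and 30.6%, 39.4% and 40.9% in CBE2mut. The first 10 held 40.3%, 31.5% and 29.5% against 43.5%, 56.6% and 59.3%. The groups stayed apart at both points, but replicate 1 of each group lay close to the other, as it did in the plot of cumulative shares.

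The point at which 50% of V joins was reached shows the same order. It was the V of order 35, 45 and 44 from D in CBE2inv, 29, 5 and 5 in CBE2mut, and 52, 44 and 43 in WT. Thus CBE2inv replicates 2 and 3 ran with WT, CBE2mut replicates 2 and 3 reached it within the first few V segments, and both replicates 1 lay between.

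**Figure D3:**
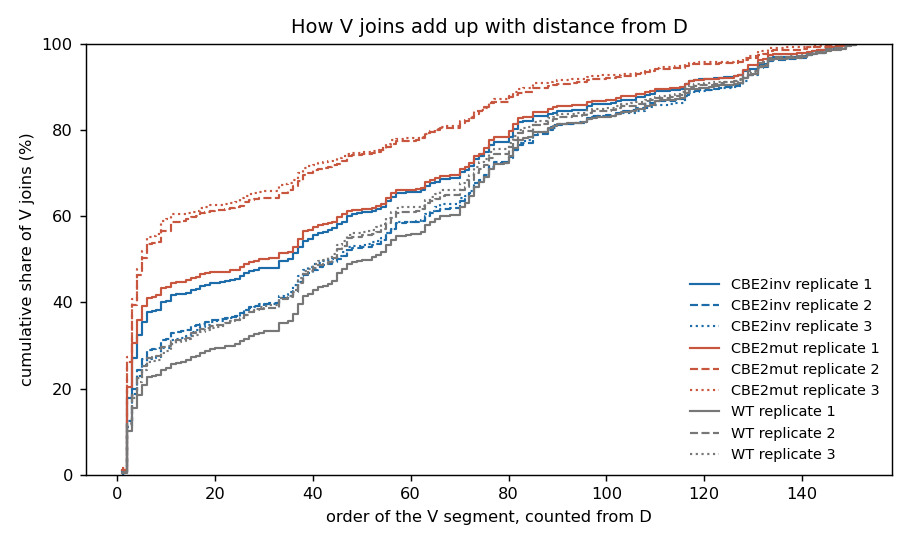
Cumulative share of V joins (%) against the order of V segments counted from D, 1 line per library of CBE2inv, CBE2mut and WT. At the first 10 V segments the lines stand at 29.5% to 40.3% in CBE2inv and at 43.5% to 59.3% in CBE2mut, and replicate 1 of both groups runs close together.

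V joins were spread over more segments in CBE2inv. After each library was thinned to 4288 V joins, the effective number of V segments (the exponential of the Shannon entropy of their shares) was 53.5, 66.8 and 66.6 in CBE2inv and 46.5, 32.03 and 29.99 in CBE2mut. It took 13, 18 and 18 V segments to hold 50% of V joins in CBE2inv, and 11, 5 and 5 in CBE2mut. For 90% it took 67, 73 and 70 against 61, 57 and 52. None of these groups overlapped, each exact permutation p was 0.1, the smallest the design allows, and the Benjamini-Hochberg value over 20 such tests was 0.667. With each distinct junction counted once the effective number was 59.5, 75.2 and 70.9 against 52.9, 34.5 and 38.4.

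Taken as shares of V joins, 16 of 143 V segments rose in CBE2inv (11.2% called higher) and 3 fell (2.1% called lower). The 3 that fell were again Ighv5-1, Ighv5-2 and Ighv2-2. Of the 16 that rose, 12 belong to Ighv1 (J558), the largest mouse V family, which fills the far end of the locus. Shares sum to the whole, so a smaller share of some segments raises the others: the median over all 143 was 0.55, and under median-of-ratios scaling it was 0.00399, with 2 higher and 9 lower. In 29 of the 143 every CBE2inv library lay above every CBE2mut library (20.3%), and in 5 every one lay below (3.5%), the 5 being among the 10 nearest to D. Leaving out CBE2mut replicate 1 raised the total of 19 to 33. Leaving out CBE2inv replicate 2, CBE2inv replicate 3 or CBE2mut replicate 3 lowered it to 5, 7 and 3.

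Of the risers, Ighv1-58 had no join in any CBE2mut library. It held 3, 13 and 14 joins in CBE2inv, or 2, 2 and 5 distinct ones, at 11.5, 34.7 and 88.2 junctions per 100000. With repeated reads kept, its pooled level was at least 10.6-fold higher in CBE2inv than a floor of 3 counts over the CBE2mut group. That bound takes each line as a separate join, and it was not computed for distinct junctions. Ighv1-58 passed the filter partly through CBE2inv replicates 2 and 3, where it held 13 and 14 joins. It was called within V joins (limma, adjusted p = 0.00106) in each of the 13 alternatives that could test it (adjusted p up to 0.0332). All 13 kept repeated reads. With each read sequence once it held 3, 8 and 9 joins in CBE2inv and fell below the filter. Whether the call holds without repeated reads was therefore not tested. Per 100000 junctions Ighv1-58 was called as well (limma, adjusted p = 0.0109). That call was lost on leaving out CBE2inv replicate 2 (3.88) or 3 (3.503) or CBE2mut replicate 3 (3.59).

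Ighv1-81 was at 57.7, 61.4 and 50.4 junctions per 100000 in CBE2inv and at 31.7, 0 and 0 in CBE2mut, beside 53.9 in WT. All CBE2inv libraries lay above CBE2mut replicate 1, the only one of its group with joins. Within V joins the log2 difference was 3.41 (SE 0.87, limma, adjusted p = 0.00299), and 2.10 and not called without CBE2mut replicate 3.

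The unnamed V at position 115810681, closest to Ighv14-1, was the most used of the risers named here. It held 408, 552 and 630 junctions per 100000 in CBE2inv and 336, 261 and 133 in CBE2mut, against 352 in WT. The groups did not overlap (log2 1.26, SE 0.32, limma, adjusted p = 0.011). The difference was 0.59 with each distinct junction counted once and 0.74 without CBE2mut replicate 3, neither of them called, and the call was also lost when CBE2inv replicate 2 or 3 was left out (1.2 and 1.17).

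The other risers named by the rule were Ighv1-23, Ighv1-83, Ighv1-78, Ighv1-77, Ighv1-20, Ighv1-76 and Ighv1-55. Their mean shares of V joins lay between 0.176% and 0.792% in CBE2inv and between 0.0770% and 0.386% in CBE2mut, with log2 differences of 1.16 to 2.13. In Ighv1-78, Ighv1-77, Ighv1-20, Ighv1-76 and Ighv1-55 the groups did not overlap, and in Ighv1-23 and Ighv1-83 they did. Each of the 7 was lost without CBE2mut replicate 3, where the differences ran from 0.21 in Ighv1-83 to 1.55 in Ighv1-78, and without CBE2inv replicate 2, and none was called under median-of-ratios scaling. All except Ighv1-20 were lost without CBE2inv replicate 3 as well, Ighv1-78 and Ighv1-77 without CBE2inv replicate 1 or CBE2mut replicate 2, and Ighv1-78 also without CBE2mut replicate 1.

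By part of the V region, the differences shifted upward with distance from D. In the nearest part, 2 of 53 V segments were called higher within V joins and 3 lower, with a median log2 difference of 0.32. In the middle part 4 of 54 were called higher and 0 lower, median 0.52, and in the farthest part 10 of 36 higher and 0 lower, median 1.02. Over all 143 V, 16 were called higher (11.2%) and 3 lower (2.1%), median 0.55. The tested segments of the farthest part held 10.8%, 13.2% and 14.0% of V joins in CBE2inv and 10.3%, 5.72% and 5.30% in CBE2mut, beside 12.4% in WT. Replicate 1 of CBE2mut thus lay close to replicate 1 of CBE2inv. In the farthest part 36 of 36 differences were above 0, as were 127 of 143 overall. Under median-of-ratios scaling, 2 of the 143 were called higher, Ighv1-58 and Ighv1-81.

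**Figure D4:**
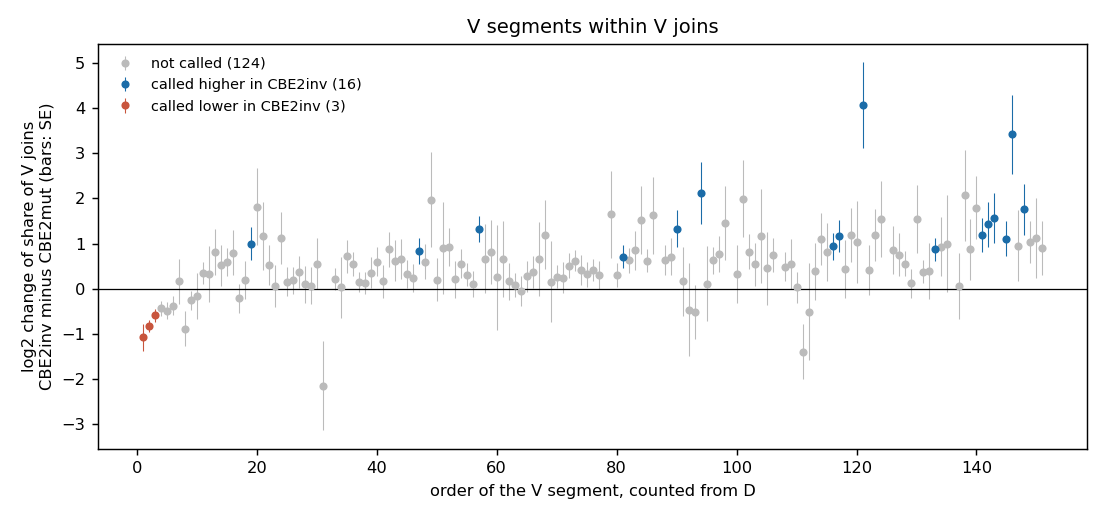
Log2 difference of the share of V joins, CBE2inv minus CBE2mut, against the order of the 143 tested V segments from D, with bars of 1 SE from limma. The 3 called lower are the first 3, and 10 of the 16 called higher lie in the farthest part.

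By family, 12 of 49 Ighv1 segments were called higher within V joins and 0 lower, with a median of 0.85, beside 16 of all 143 V segments higher (11.2%), 3 lower (2.1%) and a median of 0.55. Ighv1 as a whole took 20.6%, 26.2% and 24.6% of V joins in CBE2inv and 20.0%, 12.05% and 12.2% in CBE2mut, beside 22.8% in WT. CBE2mut replicate 1 came close to the lowest CBE2inv library. Of 19 Ighv5 segments 1 was higher and 2 lower, median 0.19, and of 17 Ighv2 segments 0 were higher and 1 lower, median 0.16. These families, interspersed at the near end, hold Ighv5-2 and Ighv2-2.

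Ighv8 had 1 of 5 segments called higher, median 0.12, and the other families together had 2 of 53, median 0.55, against the same 11.2% over all V segments. Of 4 annotated pseudogenes tested, 1 was called lower, Ighv5-1, with a median of 0.37 over the 4. A single segment stands behind the count in Ighv8 and in the pseudogenes.

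Among D joins, Ighd1-1 was the single segment called, lower in CBE2inv, 1 of 25 (4.0%), and 0 of 25 were called higher (0.0%). All CBE2inv libraries lay below all CBE2mut libraries in that 1 D (4.0%) and above them in 3 (12%). It made up 10.7%, 10.6% and 9.10% of D joins in CBE2inv and 12.4%, 13.5% and 12.6% in CBE2mut, which did not overlap, and both lay far below the WT mean of 22.1%. The log2 difference was −0.29 (SE 0.08, limma, adjusted p = 0.0284). With each distinct junction counted once the shares were 10.1%, 9.95% and 9.70% against 11.3%, 12.4% and 11.7%.

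The call of Ighd1-1 was narrow. It was lost under median-of-ratios scaling (−0.18), on leaving out CBE2inv replicate 1, 2 or 3 (−0.31, −0.31 and −0.24), and on leaving out CBE2mut replicate 2 or 3 (−0.27 and −0.29), and over 17 alternatives the adjusted p ran from 0.000425 to 0.409. Per 100000 junctions the groups overlapped, at 5964, 4397 and 4711 against 5232, 7114 and 6707 (log2 −0.32, limma, adjusted p = 0.226).

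The D at 114719358, which lies on the JH side of Ighd1-1, stood the other way. It took 9.62%, 9.43% and 8.30% of D joins in CBE2inv and 7.90%, 8.03% and 7.14% in CBE2mut, without overlap and not called (log2 0.31, limma, adjusted p = 0.0585). The D closest to Ighd3-2, second from JH, took 4.94%, 5.10% and 5.91% against 4.28%, 4.38% and 3.80%, also apart and not called (0.37, limma, adjusted p = 0.124). With each distinct junction counted once, both overlapped between the groups. The D at 114719358 then took 7.08%, 8.02% and 6.84% against 6.74%, 7.03% and 6.52%, and the D closest to Ighd3-2 took 4.15%, 4.55% and 4.77% against 3.92%, 4.38% and 3.47%. Ighd4-1 took 8.53% ± 0.922 against 7.47% ± 0.972, which overlapped (0.10, limma, adjusted p = 0.715).

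The 8 Ighd2 (DSP2) segments in the middle of the array made up 65.0% to 66.6% of D joins in CBE2inv and 65.7% to 68.0% in CBE2mut. Their log2 differences lay between −0.17 and 0.11, and none was called. The 11 tested Ighd5 segments summed to 1.11% of D joins or less in each library, with a median of −0.18 and none called. Ighd3-1, which lies beyond Ighd1-1 in the interval toward V, held 1, 0 and 1 joins in CBE2inv and 6, 1 and 0 in CBE2mut.

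**Figure D5:**
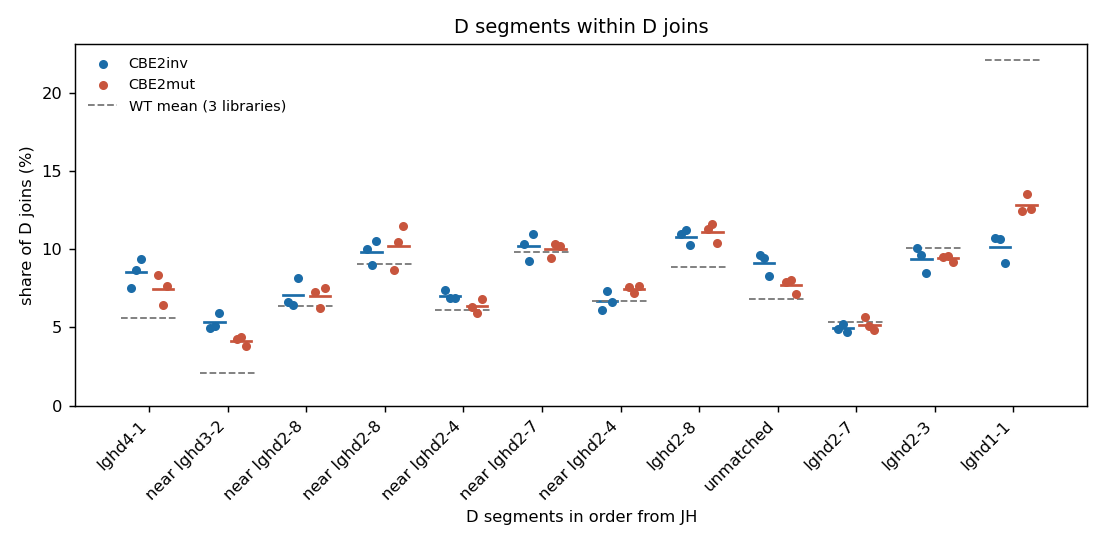
Share of D joins (%) of the 12 D segments with a group mean of at least 1%, in order from JH, 1 point per library, with lines at the means of 3 libraries and dashed lines at the WT mean. Ighd1-1, at the right, lies at 9.10% to 10.7% in CBE2inv, at 12.4% to 13.5% in CBE2mut and at 22.1% in WT.

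The D segment kept inside a completed VDJ join was read from the sequence between V and JH4, as a stretch of 8 or more bases found in a single D sequence. It could be read in 53.1% to 54.9% of V joins in CBE2inv and in 52.1% to 54.5% in CBE2mut. None of 12 D sequences was called (0.0%; limma, 3 of 12 or 25% at an unadjusted p under 0.05, and 0 to 4 over the alternatives). Ighd1-1 made up 11.9%, 10.6% and 10.6% of the D read in CBE2inv and 12.2%, 10.04% and 11.7% in CBE2mut, overlapping, against 23.1% in WT (log2 −0.09, limma, adjusted p = 0.485).

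The D at 114719358 made up 9.93%, 13.1% and 10.95% of the D inside V joins in CBE2inv and 9.39%, 9.01% and 9.23% in CBE2mut. The groups were apart, as they were for this D among D joins (log2 0.33, limma, adjusted p = 0.0893). It was called in 5 of 11 alternatives, including a match of at least 10 bases (0.37) and without CBE2inv replicate 1 (0.43), with the adjusted p between 0.0144 and 0.566. The trait was not particular to CBE2. CBE1 inverted minus CBE1 mutated gave 0.33 for this D (limma, adjusted p = 6.67e-05), a difference between the contrasts of 0.00314 (limma, adjusted p = 0.982). Ighd3-1 was rare, at 0.298%, 0.0724% and 0.118% in CBE2inv and 0.0812%, 0% and 0.0245% in CBE2mut, where the groups overlapped (log2 1.91, limma, adjusted p = 0.0893, and 0.000515 to 0.314 over 11 alternatives).

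Within every library Ighd1-1 was rarer in joins to Ighv5-2 than in joins to the other V segments. In CBE2inv it was 6.09%, 3.73% and 7.21% of the D read in Ighv5-2 joins and 13.1%, 11.6% and 11.1% in the others. In CBE2mut it was 3.95%, 3.59% and 7.16% against 14.1%, 12.2% and 13.2%. The groups overlapped in Ighv5-2 joins.

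Joins that fell in the interval from Ighd1-1 to the V segments, where IGCR1 lies, were rare. They stood at 92.3, 64.0 and 296 per 100000 in CBE2inv and at 187, 252 and 193 in CBE2mut, with CBE2inv replicate 3 above every CBE2mut library and the WT mean at 427. The log2 difference of −0.79 was not called (SE 0.41, limma, adjusted p = 0.125). Without CBE2inv replicate 3 it was −1.43 and called (adjusted p = 0.000613, the lowest over 12 alternatives, the highest being 0.392).

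These were 95 joins in CBE2inv and 167 in CBE2mut, or 49 and 61 distinct ones, and 261 of the 262 were deletional. Within 1500 bp of Ighd1-1 both groups held 47 joins. Between 3000 and 4000 bp, the range that holds the nearer of the motif matches in mm9, CBE2inv held 5, 9 and 25 joins and CBE2mut 20, 10 and 44, or 20 and 29 distinct ones in all. CBE2inv replicate 3, a library of 15877 junctions, held 25 of the 39 joins of its group. Neither group had a join between 4000 and 6000 bp, the range of the other match. Beyond 6000 bp there were 3, 0 and 1 joins in CBE2inv and 9, 4 and 28 in CBE2mut, or 3 against 10 distinct ones in all. These include the joins at Ighd3-1 that were also counted as D joins, 1, 0 and 1 against 6, 1 and 0.

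Junctions between JH4 and the other JH segments varied widely. They stood at 5437, 16475 and 6525 per 100000 in CBE2inv and at 5061, 7690 and 9596 in CBE2mut, with replicate 2 of CBE2inv far above all others, and at 1937 in WT. The groups overlapped (exact permutation p = 0.8), and the difference turned from 2030 to −1468 per 100000 without CBE2inv replicate 2. Few distinct junctions lay behind them. The 6175 lines of CBE2inv replicate 2 reduced to 443 distinct junctions, and those of the other 5 libraries, 854 to 3976, to 209 to 293.

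Most JH junctions had the inverted orientation and lay at Ighj2 and Ighj3. In CBE2inv replicate 2, Ighj3 alone held 4144 lines from 260 distinct junctions. A single deletional junction at Ighj1 recurred in all 6 libraries, with 85, 109 and 99 lines in CBE2inv and 95, 22 and 98 in CBE2mut.

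Most measures of join structure did not separate the groups either. V joins were in frame in 43.0%, 52.6% and 54.6% of readable cases in CBE2inv and in 44.2%, 46.6% and 41.8% in CBE2mut (exact permutation p = 0.3). Ighv5-2 joins were in frame in 27.0% to 33.9% and 25.3% to 29.3% (exact permutation p = 0.4), and joins of the other V segments in 48.0% to 58.4% and 49.2% to 54.1% (exact permutation p = 0.4). The frame could be read in 56.0% to 58.6% of V joins in CBE2inv and in 61.0% to 73.3% in CBE2mut. The part of this difference in the frame shares was not tested.

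Inversional joins made up 0.137% of D joins in CBE2inv and 0.143% in CBE2mut, and 0.436% and 0.516% of V joins (exact permutation p = 0.9 and 0.6). The mean gap between bait and prey was 3.60 and 3.63 bases in D joins and 16.5 and 16.6 bases in V joins (exact permutation p = 0.7 and 0.4). D ends had lost a mean of 3.70, 3.86 and 3.61 bases in CBE2inv and 3.69, 3.42 and 3.54 in CBE2mut. JH4 ends in D joins had lost 5.23, 5.33 and 5.53 bases in CBE2inv and 5.15, 5.12 and 5.19 in CBE2mut, without overlap. With each distinct junction counted once these were 5.45, 5.48 and 5.64 against 5.43, 5.34 and 5.38. The difference at JH4 ends was small and was not tested. Junctions outside Igh stood at 119 ± 18.04 and 94.4 ± 22.6 per 100000 (exact permutation p = 0.2).

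The same contrast at the other element, CBE1 inverted minus CBE1 mutated, showed where the CBE2 contrast differed. At the nearest V segments both had the same sign: within V joins Ighv5-2 fell by 0.82 on the log2 scale for CBE2 and by 0.77 for CBE1, with a difference between the contrasts of −0.05 (SE 0.17, limma, adjusted p = 0.839). For Ighv2-2 that difference was −0.21 and for Ighv5-1 −0.25, neither called. Per 100000 junctions, however, the contrasts did differ for Ighv5-2, by 0.53, with the larger fall for CBE1. The nearest V part likewise fell by 0.39 for CBE2 and by 0.96 for CBE1 (limma, adjusted p of the difference = 0.000878). Within V joins the contrasts differed at the V segments just behind. Ighv5-12 was −0.26 for CBE2 and 1.61 for CBE1, and the difference of −1.87 was called (SE 0.31, limma, adjusted p = 8.5e-07).

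Ighv5-6 was likewise −0.38 for CBE2 and 1.22 for CBE1 (difference −1.60, limma, adjusted p = 5.93e-05), and Ighv2-3 was −0.48 and 0.45 (difference −0.93, limma, adjusted p = 0.00421). Shares sum to the whole here too. Ighv5-2 held 31911 of 50894 V joins in CBE1mut replicate 1 and 14150 of 37057 in CBE1inv replicate 1. Ighv2-3 held 302, 389 and 333 joins in CBE1mut and 333, 366 and 401 in CBE1inv. For Ighv5-6 these were 207, 98 and 117 against 181, 252 and 309. For Ighv5-12 they were 149, 164 and 126 against 289, 355 and 413. Depth was 72658 to 77755 junctions in CBE1mut and 84797 to 98682 in CBE1inv. The difference between the contrasts was called in 38 of 143 V segments within V joins (26.6%), 14 of 168 segments per 100000 junctions (8.33%), 4 of 25 D segments (16%) and 4 of 10 zones (40%). The share of Ighd1-1 among D joins moved alike, by −0.29 for CBE2 and −0.28 for CBE1, with a difference of −0.00256 (limma, adjusted p = 0.981). Per 100000 junctions the zone of the middle D segments was 0.04 for CBE2 and 1.05 for CBE1 (difference −1.01, limma, adjusted p = 0.00064). V joins made up 71.7%, 73.6% and 72.6% of V plus D joins in CBE1mut and 45.6%, 47.5% and 48.5% in CBE1inv. Levels per 100000 share 1 total, so V and D levels are tied, and a fall of one cannot be told apart from a rise of the other. The zone differences are therefore not independent of each other and are not separate findings. The CBE1 libraries were of the run that held WT, so each contrast lay within 1 run.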

How the data were processed

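The deposited files hold no abundance value. Per the file headers they list junction reads singly, with the position and orientation of the prey (unit: other). Per the labels, reads were aligned to a target joining a 129 Igh sequence with mm9, and per the submitters' processing notes Bowtie2 was used (version not given in the sources used here). Replicates were not pooled, and a duplicate mark in the deposited files is 0 on every line.

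Junctions were tabulated here within 100 bp of 151 V and 26 D segments, found as clusters of at least 50 joins and named at 97% identity or more. Segments not named are given by target position. The filter asked for 10 junctions or more in 3 or more of the 18 bone marrow libraries. The voom method of limma 3.58.1 (R 4.3.3) was used with genotype as the only term, with all junctions, V joins or D joins of a library as size and Benjamini-Hochberg adjustment within a contrast. For zones, limma was run on log2 of the level plus 1. Single values were compared by exact permutation tests (scipy 1.17.1). The procedure was tested on simulated data.

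Named by rule were the 10 V segments nearest to D, 8 near V genes, every tested D (4 of them singly), and up to 10 called risers and fallers of largest change in each fit. Members and lists were chosen with earlier results of these data known. Alternatives changed the libraries fitted, scaling, filter, window, orientation, test and repeated reads. Counting each distinct junction once, with or without its read end, was added after seeing the data. Intervals and floors cover counting error only.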

Additional observations from a re-analysis of the deposited data

Results flagged for a closer look

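The results below stand here because the CBE2 contrast (inverted minus mutated) differed from the CBE1 contrast by the limma test of the difference itself. All values are log2 differences, CBE2 contrast minus CBE1 contrast. Per 100000 junctions the difference was 0.53 for Ighv5-2, −1.34 for Ighv5-12, −2.30 for the V at 114976040, −0.97 for Ighd1-1 and −0.84 for the D at 114719358. It was called in 14 of 168 segments (8.33%).

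Within V joins it was −0.93 for Ighv2-3, −1.60 for Ighv5-6, −1.48 for the V at 114919648, −1.87 for Ighv5-12 and −2.80 for the V at 114976040. These 5 come from the named V segments, most of which were chosen as the nearest to D, and the difference was called in 38 of all 143 V segments (26.6%). Within D joins it was 0.52 for Ighd4-1, which was 0.10 for CBE2 and −0.43 for CBE1, and 4 of 25 D segments were called (16%).

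Among zones it was −1.75 for the interval from D to V, 0.58 for the nearest V part, −0.98 for the last D and −1.01 for the middle D, 4 of 10 zones (40%). The nearest V part fell by 0.39 for CBE2 and by 0.96 for CBE1. Shares and levels each sum to a whole, and the balance of V and D joins shifted between the CBE1 groups, as given above. The cause of these differences between the contrasts was not tested.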

How the results depend on the processing

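Depth was 11105 to 41433 junctions per library, thinly used segments rest on few distinct junctions, and replicate 1 of each group lay close to the other in V usage. Of 1179 alternative values, 952 kept direction and side of the threshold, 107 lost and 42 gained a call, 34 moved and 44 changed sign. The cause was not tested unless named.

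Called segments numbered 6 per 100000 junctions, 19 within V joins, 1 within D joins, 3 zones and 0 of the D inside V joins. With only the 6 CBE2 libraries in the fit, which leaves fewer samples for the spread, these were 2, 9 and 2 segments and 0 zones. Median-of-ratios scaling gave 10, 11 and 2. With each read sequence once, V joins gave 4 and zones 1. With each junction and read end once, zones gave 1 and D inside V joins 1, as did each distinct junction once. A match of at least 10 bases gave 2.

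Same-numbered libraries deviated together with correlations of 0.141, 0.0467 and 0.126, and not every library correlated best with its own number, so the numbers were not taken as pairs. With the replicate block, 6 segments per 100000 junctions, 15 V segments, 1 D segment, 1 zone and 4 D inside V joins were called, and the V share differed by −1.24 points (exact sign-flip p = 1, where 0.25 is the smallest possible).

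Leaving out 1 replicate at a time gave 1 to 29 segments per 100000 junctions, 3 to 33 V segments, 0 to 2 D segments, 1 to 5 zones and 0 to 1 D inside V joins. The V share difference ran from −4.03 to 3.33 points, JH junctions from −1468 to 4051 per 100000 and from −3.70 to 11.4 per 100 D joins, and those of inverted orientation from −1681 to 3820. Inversional D joins ran from −0.0437 to 0.0423 points, the gap in D joins from −0.0758 to 0.0368 bases, blunt D joins from −0.381 to 0.340 and gapped D joins from −0.267 to 0.596 points. On the log2 scale the V at 114911185 ran from −0.23 to 0.20 per 100000 and from −0.22 to 0.39 within V joins, the V at 114976040 from −0.51 to 0.13 and from −0.61 to 0.38, Ighd3-1 from −2.10 to 0.25 and from −2.11 to 0.15, Ighv5-12 within V joins from −0.61 to 0.032 and the middle D zone from −0.073 to 0.17.

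Other settings also changed signs. JH junctions of deletional orientation went from 164 to −23.5 per 100000 with each distinct junction once. Overlapping D joins went from −0.249 to 0.0990, 0.209 and 0.269 points, and gapped ones from 0.186 to −0.175, −0.281 and −0.333, with each read sequence, each junction and read end, and each distinct junction once. Per 100000 junctions the V at 114911185 went to −0.27 under median-of-ratios scaling, −0.084 under limma trend, −0.10 with each read sequence once, −0.00295 with each distinct junction once and −0.064 with the replicate block, and within V joins to −0.31 and −0.018 under the first 2. Median-of-ratios scaling turned Ighd4-1 to −0.21, the D at 114687612 to −0.060 and the D at 114719358 to −0.16 per 100000.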
